A study of Mus musculus with 18 samples.

Results

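Msx3, Gata3 and Tal2 are 3 transcription factor genes best known from cells other than macrophages, and in these arrays their probes changed by large amounts when bone marrow macrophages were given IL-4. They were chosen by that measured log2 difference between IL-4 and mock, so the levels with IL-4 and without it are given below as a description, with no test. The array carries 4 probes for them (2 for Msx3, and 1 each for Gata3 and Tal2) among 41174 probes that are not controls, and they are 3 of the 15101 genes that could be tested. Against the mock array of the same experiment, the levels of Msx3 and Gata3 were higher with IL-4 and that of Tal2 lower, in all 3 experiments of both genotypes, although Gata3 at 18 h overlapped mock between experiments.

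The study grew macrophages from pooled bone marrow of Irf4-/- mice and of Irf4+/- littermates in human recombinant CSF1 and measured their RNA on 18 single-colour Agilent arrays. All mice were C57BL6/J, 8 to 12 weeks old, and each pool is given as 2 males and 1 female. On day 7 each genotype received IL-4 (10 ng/ml) for 4 h, IL-4 for 18 h, or no IL-4 for 18 h (mock), which makes 6 groups of 3 arrays, 1 from each of 3 independent experiments named A, B and C. The control genotype still carries 1 Irf4 allele, and the 4 h samples have no mock of their own time, so both IL-4 times are read against the 18 h mock.

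Msx3 belongs to the Msx family of homeobox factors and is known in the mouse from the dorsal neural tube of the embryo. Gata3 encodes a zinc finger factor that T cell development, Th2 cells and group 2 innate lymphoid cells need. Tal2 encodes a basic helix-loop-helix factor related to Tal1 and Lyl1, which mice need for neurons of the midbrain and which translocations switch on in human T cell leukaemia. In macrophages IL-4 acts through its receptor on STAT6, and IRF4 is itself a transcription factor that IL-4 induces there.

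The promoters of the 3 genes are shown because their RNA moved together with IL-4, Tal2 the other way. Each is the window of 300 bases from 250 before to 50 after the annotated start, from RefSeq on GRCm38.p6, read in the direction of transcription. Msx3 lies at chr7:140049039-140049338 on the minus strand, Gata3 at chr2:9878551-9878850 on the minus strand, and Tal2 at chr4:53779451-53779750 on the plus strand. Capitals mark matches, on either strand, to CANNTG (the E-box that helix-loop-helix factors bind), to TGATAG (1 form of the site of GATA factors), to TATAAA and to GGGCGG, with N for any base.
Msx3: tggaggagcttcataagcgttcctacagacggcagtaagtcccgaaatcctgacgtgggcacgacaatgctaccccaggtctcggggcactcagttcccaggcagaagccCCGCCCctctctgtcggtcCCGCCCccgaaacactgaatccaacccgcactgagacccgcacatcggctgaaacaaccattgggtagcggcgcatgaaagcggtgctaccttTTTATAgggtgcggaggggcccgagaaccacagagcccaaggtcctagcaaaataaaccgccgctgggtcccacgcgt
Gata3: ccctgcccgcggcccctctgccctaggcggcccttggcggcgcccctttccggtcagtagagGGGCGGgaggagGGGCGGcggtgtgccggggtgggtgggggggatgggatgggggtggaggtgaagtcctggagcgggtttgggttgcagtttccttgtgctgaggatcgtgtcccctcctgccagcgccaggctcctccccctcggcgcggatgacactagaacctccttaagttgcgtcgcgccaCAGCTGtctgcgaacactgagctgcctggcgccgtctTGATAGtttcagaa
Tal2: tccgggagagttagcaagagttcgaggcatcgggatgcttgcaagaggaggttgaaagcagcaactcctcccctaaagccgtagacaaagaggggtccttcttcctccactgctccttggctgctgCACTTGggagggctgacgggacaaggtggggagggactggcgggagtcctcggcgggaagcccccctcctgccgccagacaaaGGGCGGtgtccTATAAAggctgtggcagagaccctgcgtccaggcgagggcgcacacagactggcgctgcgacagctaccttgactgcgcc

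None of the 3 windows held the STAT-type sites TTCNNNNGAA or TTCNNNGAA, found in 6.95% and 8.3% of 32851 promoters, or the IRF-type repeat GAAANNGAAA, found in 3.44%. Of the letters GATA factors bind, AGATAA (11.2% of promoters), AGATAG (8.95%) and TGATAA (9.05%) were in none of the 3, and TGATAG (7.29%) stood in Gata3 at bases 37 to 42. None held the homeodomain core TAATTA (5.29%). CANNTG, present in 72.3% of promoters, stood in Gata3 as CAGCTG across the start (bases -1 to 5) and in Tal2 as CACTTG at -124 to -119, and was not in the Msx3 window. TATAAA, present in 13.6%, stood in Tal2 at -30 to -25 and in Msx3 at -28 to -23 on the opposite strand, and was not in Gata3. GGGCGG, present in 35.7%, occurred 2 times in Msx3 (opposite strand), 2 times in Gata3 and 1 time in Tal2. The GATA forms other than AGATAA, and TATAAA and GGGCGG, were added to the search after the sequences had been read. No matches to different motifs overlapped. G and C made up 60% of the Msx3 window, 67.3% of the Gata3 window and 62.7% of the Tal2 window, against a median of 52.7% over all promoters. A match is a string of letters and says nothing about binding, and a missing match covers only these letters in this window.

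Levels below are log2 of the spot's processed intensity minus the array's 75th percentile, so 0 is the brightness of that percentile, and 1 probe's level cannot be set against another's. The brighter Msx3 probe, A_52_P665478, had levels in Irf4-/- cells of -6.97, -8.44 and -8.50 in mock (experiments A, B and C), 0.35, 0.30 and 0.95 at 4 h of IL-4, and 0.51, -0.32 and 0.58 at 18 h. In Irf4+/- cells it had -5.22, -8.35 and -7.48 in mock, 0.68, 0.02 and 0.88 at 4 h, and 1.04, -1.11 and 0.78 at 18 h. Every IL-4 array thus lay far above every mock array, and the spot was well above background on all 12 IL-4 arrays but on only 1 of the 6 mock arrays, Irf4+/- A. On the scanner's own scale the spot read 374.9 to 2362.7 intensity units with IL-4 and 2.5 to 25.2 in mock.

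**Figure D1:**
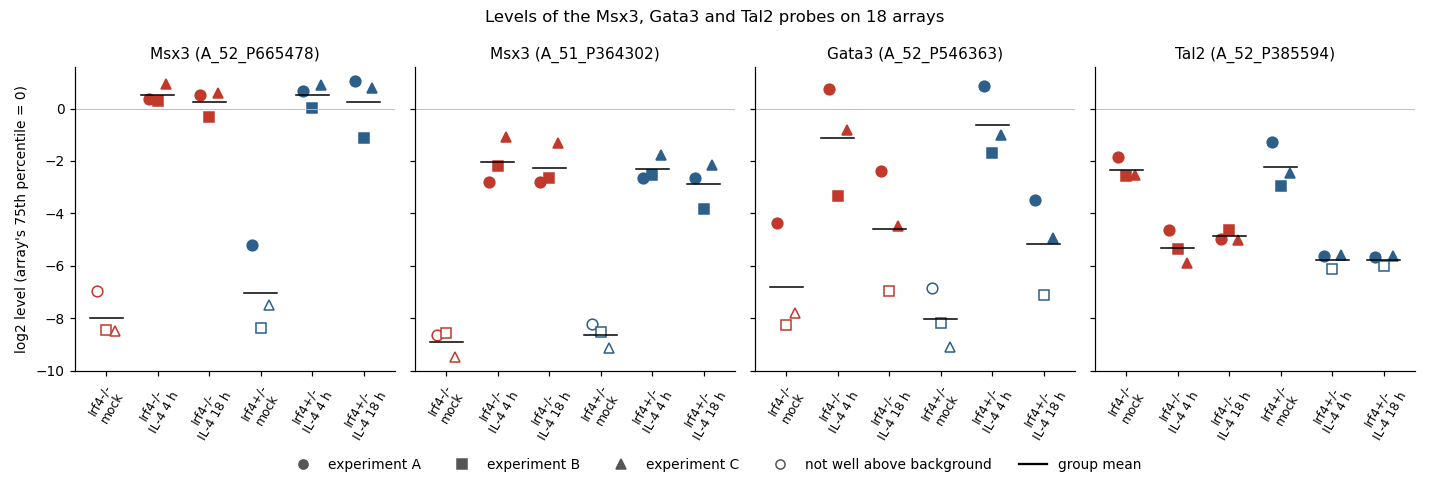
Log2 level (y axis, 0 is each array's 75th percentile) of the 4 probes in the 6 groups (x axis; Irf4-/- in red, Irf4+/- in blue), with 1 symbol per experiment, open where the spot was not well above background, and a bar at each group mean. The IL-4 points of A_52_P665478 lie between -1.11 and 1.04 and its mock points between -8.50 and -5.22, whereas the mock points of Tal2 are its highest.

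Msx3 in Irf4-/- cells was at least 149-fold higher at 4 h and at least 123-fold higher at 18 h of IL-4 than in mock. Here "at least" sets the mean of the IL-4 arrays against the mock arrays' mean of the higher of the probe's own signal and the lowest signal that is well above background on that array. The measured log2 differences per experiment were 7.32, 8.74 and 9.44 at 4 h and 7.48, 8.12 and 9.08 at 18 h. For Irf4+/- cells, where 1 mock array was measured, they were 5.90, 8.37 and 8.36 at 4 h and 6.26, 7.24 and 8.26 at 18 h. The smallest of them, in experiment A, is the pair whose mock spot was the one above background. Folds against a spot this dim depend on the background correction: with normexp in its place the mean differences were 3.68 and 3.43 in Irf4-/- cells and 4.27 and 3.86 in Irf4+/- cells at 4 h and 18 h.

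The other Msx3 probe, A_51_P364302, gave the same picture at a dimmer signal. In Irf4-/- cells its levels were -8.64, -8.56 and -9.49 in mock, -2.81, -2.21 and -1.07 at 4 h, and -2.79, -2.65 and -1.33 at 18 h. Irf4+/- cells gave -8.22, -8.53 and -9.13 in mock, -2.64, -2.54 and -1.79 at 4 h, and -2.65, -3.83 and -2.16 at 18 h. No mock array was well above background and every IL-4 array was. The probe was at least 25.2-fold higher at 4 h and at least 21.6-fold higher at 18 h in Irf4-/- cells, and at least 22-fold and at least 15-fold higher in Irf4+/- cells.

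Msx3 held its level between the 2 times. The difference of 18 h minus 4 h was 0.16, -0.62 and -0.36 in Irf4-/- cells and 0.36, -1.13 and -0.10 in Irf4+/- cells (log2, experiments A, B and C). The order of the group means was 4 h, 18 h and mock in both genotypes, with means of 0.53 ± 0.36, 0.26 ± 0.50 and -7.97 ± 0.86 in Irf4-/- cells and of 0.53 ± 0.45, 0.24 ± 1.17 and -7.02 ± 1.62 in Irf4+/- cells (SD, n = 3 each). The 4 h and 18 h values overlapped in both genotypes, so their order is not larger than the spread.

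Gata3 was highest at 4 h. Its probe, A_52_P546363, had levels in Irf4-/- cells of -4.36, -8.25 and -7.81 in mock, 0.75, -3.34 and -0.80 at 4 h, and -2.39, -6.95 and -4.46 at 18 h. Irf4+/- cells gave -6.83, -8.18 and -9.09 in mock, 0.87, -1.71 and -0.99 at 4 h, and -3.47, -7.10 and -4.95 at 18 h. All 4 h arrays were well above background. At 18 h experiment B was not, in either genotype, and among the mock arrays only Irf4-/- A was. The 4 h values lay above all mock values in both genotypes, whereas the 18 h values overlapped those of mock in both.

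Experiment A gave the highest Gata3 level in all 6 groups. At 4 h the differences from mock were 5.12, 4.91 and 7.01 in Irf4-/- cells, a 51.3-fold higher mean, and 7.70, 6.47 and 8.10 in Irf4+/- cells, at least 70.5-fold higher. At 18 h they were 1.98, 1.30 and 3.35 in Irf4-/- cells (4.63-fold) and 3.36, 1.08 and 4.14 in Irf4+/- cells (at least 2.98-fold). Both Irf4-/- folds rest on a mock group in which 2 of 3 spots were not well above background. With normexp the mean differences were 1.96 and 0.04 in Irf4-/- cells at 4 h and 18 h, and at 4 h 3.44 in Irf4+/- cells. In Irf4-/- cells at 18 h the mean difference of 2.21 was 3.43 without mock A and 1.1 without 18 h A, and leaving out 18 h B moved it almost as far up as leaving out mock A. The 18 h minus 4 h difference there was -2.29 without 18 h B.

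From 4 h to 18 h the Gata3 signal was lower in every experiment. The difference of 18 h minus 4 h was -3.14, -3.61 and -3.66 in Irf4-/- cells, an 11.1-fold lower mean, and -4.34, -5.39 and -3.97 in Irf4+/- cells, 23.6-fold lower. These folds include the 18 h spots of experiment B, which were not well above background, and with normexp the mean differences were -1.92 in Irf4-/- and -1.40 in Irf4+/- cells. Levels in Irf4-/- cells averaged -6.81 ± 2.13 in mock, -1.13 ± 2.06 at 4 h and -4.60 ± 2.28 at 18 h, and in Irf4+/- cells -8.03 ± 1.14, -0.61 ± 1.33 and -5.17 ± 1.83 in the same order (SD, n = 3 each). In Irf4-/- cells the 4 h and 18 h values overlapped between experiments, while in Irf4+/- cells they did not.

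Tal2 behaved in the opposite way. Its probe, A_52_P385594, had levels in Irf4-/- cells of -1.84, -2.59 and -2.55 in mock, -4.65, -5.37 and -5.90 at 4 h, and -4.96, -4.62 and -5.01 at 18 h. Irf4+/- cells gave -1.27, -2.96 and -2.47 in mock, -5.62, -6.11 and -5.58 at 4 h, and -5.66, -6.02 and -5.61 at 18 h. All 6 mock arrays lay above all 12 IL-4 arrays, so this factor was measured in macrophages without IL-4. With IL-4 the spot stayed well above background except in experiment B of Irf4+/- cells at both times.

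Tal2 at 4 h differed from mock by -2.80, -2.78 and -3.34 in Irf4-/- cells, a 7.87-fold lower mean, and by -4.35, -3.15 and -3.11 in Irf4+/- cells, 11.6-fold lower. At 18 h the differences were -3.12, -2.03 and -2.46 in Irf4-/- cells (5.79-fold lower) and -4.39, -3.07 and -3.14 in Irf4+/- cells (11.6-fold lower). Between 4 h and 18 h it moved by -0.31, 0.75 and 0.89 in Irf4-/- cells and by -0.04, 0.08 and -0.03 in Irf4+/- cells, and the values of the 2 times overlapped in both genotypes. With normexp the mean differences from mock were -1.79 and -1.34 in Irf4-/- cells at 4 h and 18 h, and -0.85 and 0.07 in Irf4+/- cells, the last of opposite sign. Means in Irf4-/- cells were -2.33 ± 0.42 in mock, -5.31 ± 0.63 at 4 h and -4.86 ± 0.21 at 18 h, and in Irf4+/- cells -2.23 ± 0.87, -5.77 ± 0.29 and -5.77 ± 0.23 in the same order (SD, n = 3 each).

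**Figure D2:**
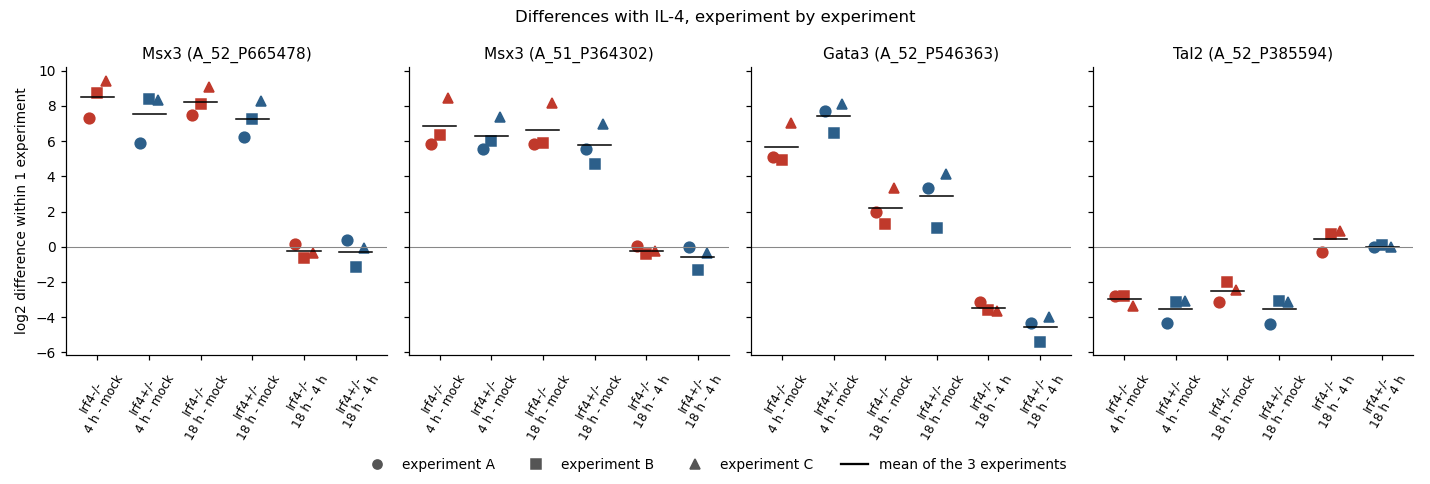
Log2 differences within 1 experiment (y axis) for each probe: 4 h of IL-4 minus mock, 18 h minus mock and 18 h minus 4 h (x axis), Irf4-/- in red and Irf4+/- in blue, with a bar at the mean of the 3 experiments. Msx3 steps lie between 5.90 and 9.44 for A_52_P665478 at both times, the 18 h minus 4 h steps of Gata3 lie between -5.39 and -3.14, and all Tal2 steps against mock lie between -4.39 and -2.03.

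The arrays sat on 7 slides. In experiments A and B the 3 arrays of a genotype shared 1 slide, so those differences with IL-4 are within a slide, while experiment C was spread over 3 slides. No slide held both genotypes in the same condition, so genotype and slide are only partly separable.

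The genotype comparison asks whether IRF4 affects these genes, and the choice of genes did not use it. None of the 3 genes differed between Irf4-/- and Irf4+/- cells in any condition by limma after Benjamini-Hochberg adjustment over 15101 genes (adjusted p = 1 in each case). Msx3 differed by -0.95 ± 0.71 in mock (95% confidence interval -2.47 to 0.56), by 0.01 at 4 h (-1.51 to 1.52) and by 0.02 at 18 h (-1.49 to 1.53). Gata3 differed by 1.22 ± 1.37 in mock (-1.72 to 4.16), by -0.52 at 4 h (-3.46 to 2.42) and by 0.57 at 18 h (-2.37 to 3.51). These are log2 differences of Irf4-/- minus Irf4+/- with their standard errors. The Gata3 intervals include changes of more than 2 log2 units either way, so this fit could have seen only very large effects. Its error holds the spread between experiments. With the experiment as a block the differences were the same, and the standard error was 0.58 for Gata3 and 0.51 for Msx3. The slide as a fixed term gave its largest differences for Gata3 at 4 h (-2.83 ± 0.90) and Msx3 in mock (-2.32 ± 0.94). Neither was called (limma adjusted p 0.963 and 0.892).

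In the fit without a block, Tal2 was the one member whose interval left out 0 in any condition. It differed by -0.10 ± 0.39 in mock (-0.93 to 0.73), by 0.46 at 4 h (-0.37 to 1.29) and by 0.90 at 18 h (0.07 to 1.73). At 18 h the Irf4-/- value was the higher one in 3 of 3 experiments, by 0.71, 1.40 and 0.60. In 1 of the 3 Irf4+/- arrays at 18 h the spot was not well above background. The limma adjusted p of this difference was 1, and 0.215 with the experiment as a block. With normexp it was -1.05, of opposite sign, and 0.15 with normexp fitted without the dimmest spots.

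The response to IL-4 itself was compared as the difference of the differences. It was 0.96 ± 1.00 for Msx3 at 4 h (-1.18 to 3.10) and 0.97 at 18 h (-1.17 to 3.12). It was -1.74 ± 1.94 for Gata3 at 4 h (-5.90 to 2.41) and -0.65 at 18 h (-4.81 to 3.51). It was 0.56 ± 0.55 for Tal2 at 4 h (-0.61 to 1.73) and 1.00 at 18 h (-0.18 to 2.17). All 6 had a limma adjusted p of 1. For Msx3 and Gata3 these values, like the genotype differences in mock, rest on mock spots of which 5 of 6 were not well above background. With normexp both Msx3 responses turned sign, to -0.59 and -0.43, as did those of Tal2, to -0.94 and -1.41. At 4 h experiments A, B and C gave 1.43, 0.37 and 1.08 for Msx3, -2.58, -1.56 and -1.09 for Gata3, and 1.55, 0.37 and -0.23 for Tal2. The Gata3 response at 4 h kept its sign in every alternative. It was -1.48 with normexp and -0.33 with normexp fitted without the dimmest spots. With the experiment as a block it stayed at -1.74, with a standard error of 0.82. With the slide as a random block or a fixed term it was -2.11 ± 0.75 and -2.36 ± 0.58 (limma adjusted p 0.649 and 0.658). Over all genes, limma called 0 differences in mock, 0 at 4 h and 4 at 18 h (0.0265% of genes), and 0 in either response. Unadjusted p under 0.05 was reached by 357, 120, 459, 57 and 82 genes in these comparisons.

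**Figure D3:**
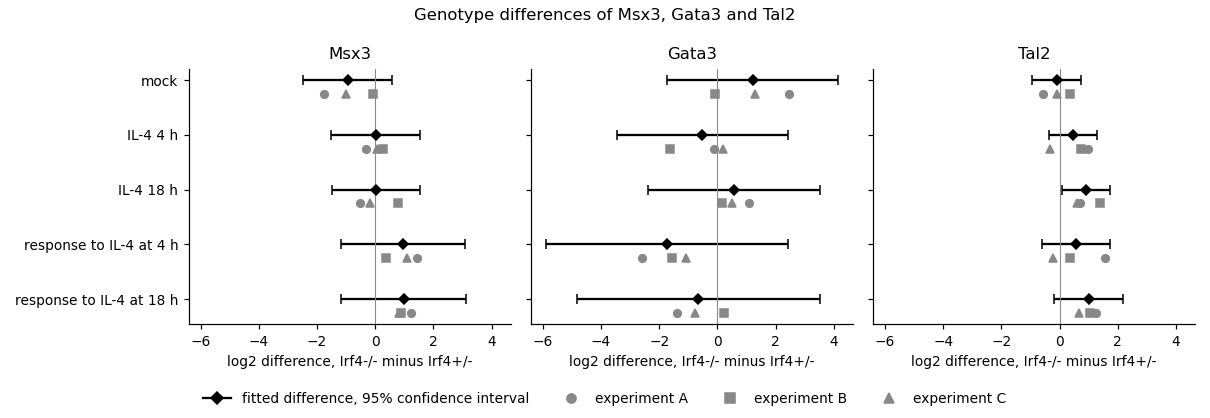
Log2 difference of Irf4-/- minus Irf4+/- (x axis) for Msx3, Gata3 and Tal2 in mock, at 4 h and at 18 h of IL-4, and for the response to IL-4 at each time (rows), as the fitted value with its 95% confidence interval (black) and the 3 experiments (grey). In this fit without a block, only the interval of Tal2 at 18 h, 0.07 to 1.73, leaves out 0, and that difference is -1.05 with normexp.

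The Irf4 probe did not mark the genotype. It averaged -0.77 ± 0.22 in mock, 1.72 ± 0.33 at 4 h and 1.52 ± 0.54 at 18 h in cells labelled Irf4-/-, and -1.11 ± 0.72, 1.67 ± 0.59 and 1.27 ± 0.48 in Irf4+/- cells in the same order (SD, n = 3 each). It rose with IL-4 in the cells labelled Irf4-/-, by 2.50 at 4 h (limma adjusted p = 0.00172) and 2.29 at 18 h (0.00329), and in Irf4+/- cells by 2.78 (0.000716) and 2.37 (0.00203). The sources used here do not place this probe relative to the deleted part, so it checks no label, and each genotype difference rests on the labels.

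Per array, 63.4% to 74.4% of 43379 spots were well above background, and the 75th percentile of the intensity was 719.2 to 1960.7. IL-4 changed 608 genes (4.03%) at 4 h and 548 (3.63%) at 18 h in Irf4-/- cells, and 660 (4.37%) and 638 (4.22%) in Irf4+/- cells, at a limma adjusted p under 0.05. Fitted with the experiment as a block, the counts were 2786 and 2775 in Irf4-/- cells and 2780 and 2363 in Irf4+/- cells. Counts of other genes below are read against those percentages where the fit had no block. Counts from the block fit are read against its own larger totals, which are out of the same 15101 genes. The members are left out of all these counts.

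The cells carried the RNA of macrophages throughout. The macrophage markers Csf1r, Adgre1, Cd68, Lyz2, Itgam, Fcgr1, Mertk, Cd14 and Spi1 were all well above background on every array. With IL-4 the endotoxin co-receptor Cd14 fell, with log2 changes of -1.84 ± 0.23 at 4 h and -2.35 at 18 h in Irf4-/- cells and of -1.64 and -2.48 in Irf4+/- cells (limma adjusted p 1.81e-05 to 0.000786). Csf1r, Adgre1, Cd68, Lyz2, Itgam, Fcgr1, Mertk and Spi1 were not called, whereas the block fit called Mertk lower in all 4 comparisons and Fcgr1 lower at 18 h in both genotypes.

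Gata3 is a defining factor of T cells and group 2 innate lymphoid cells, so their markers are given beside it. Of 16 such markers on the array, 7 to 10 were well above background on all 3 arrays of a group, and 12 could be tested. None was called in any IL-4 comparison by limma, whereas with the experiment as a block 3 and 4 were called at 4 h and 18 h in Irf4-/- cells and 1 and 3 in Irf4+/- cells, among them Il1rl1, Cd3g, Il7r, Lck and Cd2. Their summed linear level, in multiples of the array's 75th percentile, was 10.2, 18.4 and 16.4 in mock (experiments A, B and C), 9.39, 13.5 and 10.2 at 4 h and 14.2, 24.4 and 19.8 at 18 h in Irf4-/- cells. In Irf4+/- cells it was 9.63, 17.1 and 15.4 in mock, 8.05, 13 and 11 at 4 h and 19.8, 24.7 and 18.1 at 18 h. At 4 h this sum was below that of mock in every experiment of both genotypes, and at 18 h it was above that of mock in every experiment. Experiment A had the lowest sum in 5 of 6 groups, and a linear sum weighs its brightest markers most. The part of such cells in the Gata3 values was not tested. Il5 was well above background on no array in 5 of the 6 groups, and Cd247 and Bcl11b on none of the Irf4-/- mock and 4 h arrays. In RNA of whole cultures, fewer cells of a type and less RNA per cell cannot be told apart.

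Basophils and mast cells also use a GATA factor, Gata2. The summed level of their 11 markers in Irf4-/- cells was 0.695, 1.01 and 0.653 in mock (experiments A, B and C) and 0.998, 1.14 and 1.09 at 4 h. In Irf4+/- cells it was 0.866, 0.88 and 0.779 in mock and 1.62, 1.34 and 0.977 at 4 h. At 4 h this sum was thus above that of mock in every experiment of both genotypes. At 18 h it was 0.505 to 0.661 in Irf4-/- and 0.438 to 0.562 in Irf4+/- cells, below the mock of the same experiment in each. Ms4a2 was well above background on no mock or 4 h array, and Mcpt8 on no mock array. Kit, the stem cell factor receptor, fell at 4 h, with changes of -2.10 ± 0.45 in Irf4-/- cells (limma adjusted p = 0.0138) and -1.86 in Irf4+/- cells (0.0266). Neither Kit call stood without every array: the first was lost without mock B, mock C or 4 h C, and the second without any 1 array other than mock A, with adjusted p up to 0.0867 and 0.127. Hdc, which makes histamine, fell at 18 h in Irf4+/- cells (-1.66 ± 0.35, adjusted p = 0.0116), a call lost without mock B or 18 h C (up to 0.0514), and its change at 4 h there was 1.11 (0.101). The block fit called Hdc higher at 4 h in Irf4+/- cells (0.0187) and lower at 18 h in Irf4-/- (0.0202) and Irf4+/- cells (0.0017). The part of these cells in the Gata3 values was not tested.

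Markers of B cells, dendritic cells, fibroblasts, and erythroid and stem cells gave 0 calls in the 4 comparisons with mock. The block fit called none of the B cell and fibroblast markers, but called Flt3 and Dpp4 (dendritic cells) and Alas2, Ly6a and Cd34 (erythroid and stem cells) in at least 1 comparison. Of 6 neural markers tested, the microtubule protein gene Map2 rose, in Irf4+/- cells at 18 h, by 2.54 ± 0.65 (limma adjusted p = 0.0379), a call lost without mock B, mock C, 18 h A or 18 h C (up to 0.182). In Irf4-/- cells Map2 differed by 2.43 (0.0535) at the same time. The block fit called Map2 higher in all 4 comparisons (adjusted p 4e-05 to 0.00127), and also called Nes and Mbp lower at 4 h in both genotypes and Mbp lower at 18 h in Irf4+/- cells.

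The closest relatives of Msx3 did not share its pattern. Msx2 was well above background on no array. Msx1 was measured on every array with group means of -2.93 to -2.50, and its difference at 4 h was -0.24 ± 0.27 in Irf4-/- cells and -0.23 in Irf4+/- cells (limma adjusted p 0.81 and 0.906). Among 25 MSX and NK-like homeobox genes besides Msx3, 22 were on the array and 10 could be tested. Of these 10, 1 rose at 4 h in Irf4-/- cells, Emx1, a factor of the developing cortex (1.13 ± 0.28, adjusted p = 0.0306), and 0 were called at 18 h or in Irf4+/- cells. Emx1 was not called without mock A, mock C, 4 h B or 4 h C (up to 0.176). Fitted with the experiment as a block, 2 (Emx1 and Hlx) and 1 were called at 4 h and 18 h in Irf4-/- cells and 1 and 0 in Irf4+/- cells. The median change at 4 h was 0.33 in Irf4-/- and 0.04 in Irf4+/- cells, against 0.08 and -0.02 over all genes.

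Other genes of the dorsal neural tube, where Msx3 is known from, gave 0 calls among 12 of 20 that could be tested, in all 4 comparisons with mock. The block fit called 2 and 1 at 4 h and 18 h in Irf4-/- cells and 2 and 1 in Irf4+/- cells, with Lhx2, Bmp2, Bmp7 and Id1 among them. Pax3, Bmp6, Lmx1a and Zic1 were well above background on no array.

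Among the relatives of Gata3, Gata1, Gata4 and Gata6 showed no such step in their group means. Gata1 had group means of -5.24 to -4.93, Gata4 of -4.70 to -4.30 and Gata6 of -6.04 to -5.37, and none was called by limma without the block. Gata2, which could not be tested, ranged from -8.14 to -3.60 and was well above background on 1 Irf4-/- mock array and on 2 arrays of each other group. Gata5 was above background on 3 arrays in all. Of 11 GATA family members and cofactors tested, Trps1, a GATA-type repressor, fell at 4 h, with changes of -1.53 ± 0.24 in Irf4-/- cells (limma adjusted p = 0.00182) and -1.59 in Irf4+/- cells (0.00127). Its fall at 18 h in Irf4+/- cells (-1.1, adjusted p = 0.0164) was lost without mock B, mock C, 18 h A or 18 h C (up to 0.0867). Ldb1, an adaptor that joins GATA and TAL complexes, rose by 0.63 ± 0.16 at 4 h in Irf4-/- cells (0.0378), a call lost without any 1 of the 6 arrays (up to 0.195). In the block fit Trps1 (lower) and Ldb1 (higher) were called at 4 h in each genotype, Trps1 (lower) and Gata6 (higher) at 18 h in Irf4-/- cells, and Trps1 (lower) at 18 h in Irf4+/- cells.

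Genes that Th2 cells and group 2 innate lymphoid cells use with Gata3 gave 0 calls among 13 of 20 tested, in all 4 comparisons. Their median change at 4 h was 0.00 in Irf4-/- and -0.31 in Irf4+/- cells. The block fit called 2 and 2 at 4 h and 18 h in Irf4-/- cells and 1 and 3 in Irf4+/- cells, from Il1rl1, Rora, Penk and Maf.

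Among the relatives of Tal2, Lyl1 moved in the same direction by a smaller step. Lyl1, a helix-loop-helix factor of blood cells, averaged 4.90 ± 0.18 at 4 h and 5.66 ± 0.23 in mock in Irf4-/- cells, a change of -0.76 ± 0.20 (limma adjusted p = 0.0417). Irf4+/- cells showed changes of -0.85 at 4 h (0.0215) and -0.98 at 18 h (0.00883). The call in Irf4-/- cells was lost without any 1 array other than mock A (up to 0.176). The 4 h call in Irf4+/- cells was lost without any 1 array other than 4 h B (up to 0.0953), and the 18 h call without 18 h C alone (0.0501). Tal1, the factor most like Tal2, was level at 1.18 to 1.54 in the 6 groups. Nhlh1 was well above background on no array and Nhlh2 on 3. Of 13 TAL, E and Id protein genes tested 2 were called in Irf4-/- cells at 4 h and 1 in Irf4+/- cells at each time, against 3 in every one of the 4 comparisons with the experiment as a block.

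**Figure D4:**
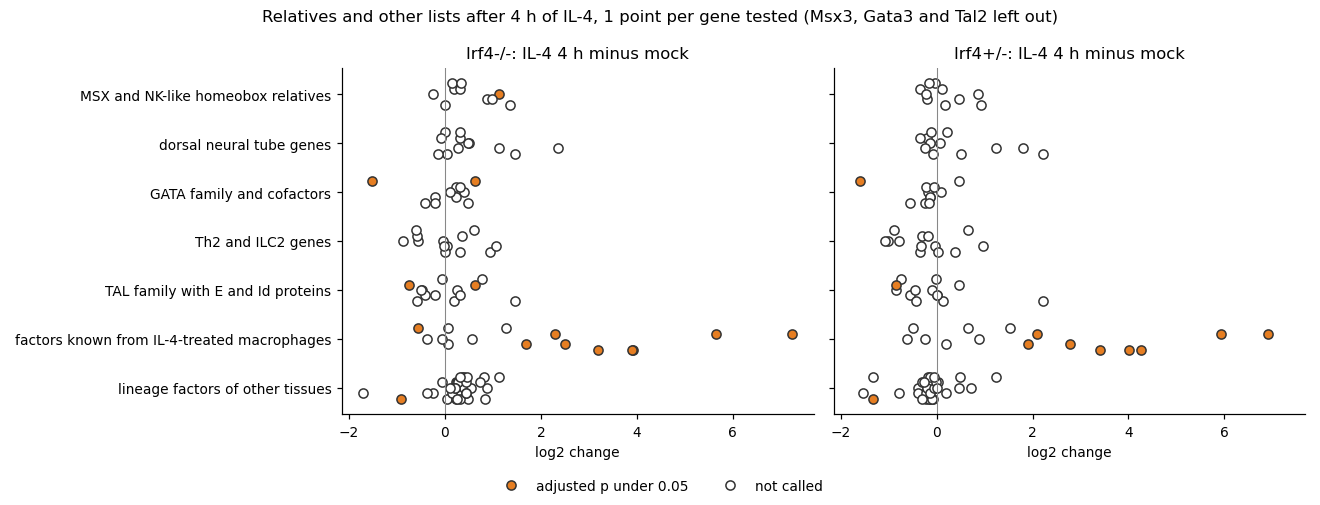
Log2 change at 4 h of IL-4 against mock (x axis) in Irf4-/- cells (left) and Irf4+/- cells (right), with 1 point per tested gene of 7 lists (rows), the 3 members left out, and filled points at a limma adjusted p under 0.05. The filled points gather in the list of factors known from IL-4-treated macrophages, 9 of 15 in Irf4-/- cells and 8 of 15 in Irf4+/- cells, and Mef2c is the 1 filled point among 33 lineage factors in each genotype.

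Genes already known to answer IL-4 in macrophages moved strongly in the same arrays. Of 15 tested, 8 rose and 1 fell at 4 h and 8 rose at 18 h in Irf4-/- cells, while in Irf4+/- cells 8 rose at 4 h and 9 at 18 h. Block fits called 9 and 11 in Irf4-/- cells and 10 and 10 in Irf4+/- cells. Cish, a feedback inhibitor of cytokine receptors, rose by 7.24 ± 0.94 at 4 h and 6.15 at 18 h in Irf4-/- cells and by 6.92 and 5.83 in Irf4+/- cells (limma adjusted p 0.000423 to 0.00175). Socs1, of the same family, rose by 5.65 ± 0.68 and 4.27 in Irf4-/- cells and by 5.93 and 4.38 in Irf4+/- cells (0.000141 to 0.00186). The zinc finger factor Egr2 rose by 3.91 ± 0.34 and 4.19 in Irf4-/- cells and by 4.27 and 4.16 in Irf4+/- cells (4.63e-06 to 8.77e-06). Stat6, the factor the IL-4 receptor activates, fell at 4 h in Irf4-/- cells (-0.57 ± 0.13, adjusted p = 0.025), and its change in Irf4+/- cells was -0.49 (0.0541). The Stat6 call was lost without mock A, mock B, 4 h A or 4 h C (up to 0.13).

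A wide list of factors that define other tissues asks whether further lineage factors joined the 3 genes. Of 61 on the array besides the members, 33 could be tested. The 1 called in the comparisons with mock was Mef2c, a factor of muscle, B cells and myeloid cells, which fell at 4 h, with changes of -0.91 ± 0.17 in Irf4-/- cells (limma adjusted p = 0.00697) and -1.32 in Irf4+/- cells (4e-04). At 18 h it differed by 0.08 and -0.42, not called. In the block fit 3 and 2 of the 33 were called in Irf4-/- cells and 3 and 3 in Irf4+/- cells, Gfi1b, Lhx2, Nfe2 and Gata6 among them. The median change of the 33 at 4 h was 0.28 in Irf4-/- and -0.14 in Irf4+/- cells.

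Among the genes beside the members on the chromosome, Zfp511 next to Msx3 moved in its direction, by far less. Of the 6 measured genes nearest Msx3, its neighbour Zfp511 was called, with changes of 0.74 ± 0.17 at 4 h in Irf4-/- cells (limma adjusted p = 0.0223) and of 0.90 (0.00583) and 0.65 (0.0433) at 4 h and 18 h in Irf4+/- cells. The Zfp511 call in Irf4-/- cells was lost without mock A, mock C, 4 h A or 4 h C (up to 0.11), and that at 18 h without any 1 array other than 18 h C (up to 0.204). The block fit called Zfp511 higher in all 4 comparisons, with an adjusted p of 0.0026 and 0.014 at 4 h and 18 h in Irf4-/- cells and of 0.00061 and 0.00595 in Irf4+/- cells. Adam8, Tubgcp2, Caly, Prap1 and Fuom were not called without the block, with changes of -0.23 to 0.79. With it, Adam8 and Prap1 were called higher at both times in Irf4-/- cells (adjusted p 0.00578 to 0.047) and Tubgcp2 higher at 4 h in Irf4-/- (0.0293) and Irf4+/- cells (0.0251). Of the 6 nearest Gata3, Usp6nl, the third gene on one side, fell at 4 h, with changes of -1.48 ± 0.31 in Irf4-/- cells (0.0125) and -1.25 in Irf4+/- cells (0.0306), while Gata3 was high. Those calls were lost without mock A or 4 h C in Irf4-/- cells (up to 0.0798) and without mock A, mock C, 4 h B or 4 h C in Irf4+/- cells (up to 0.143). Celf2, Taf3 and Atp5c1 were not called (the block fit called Atp5c1 higher at 18 h in Irf4-/- cells, 0.0325), and 5031426D15Rik and 4930412O13Rik, the 2 adjacent ones, could not be tested. Near Tal2, Slc44a1, Fsd1l, Tmem38b, Zfp462 and Rad23b were not called without the block, and Tmem38b had the lowest adjusted p of these, with a change of -0.86 (0.0885) at 4 h in Irf4-/- cells and of -0.88 (0.0772) at 18 h in Irf4+/- cells. With the block, Tmem38b (adjusted p 0.00401 to 0.0364) and Slc44a1 (0.0112 to 0.0237) were called lower in all 4 comparisons, the direction of Tal2, and Fsd1l lower at 4 h in Irf4-/- cells (0.0476).

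Across the 18 arrays the level of Msx3 correlated with that of Gata3 at a Pearson r of 0.74 and with that of Tal2 at -0.89, and Gata3 with Tal2 at -0.62. These values, like those that follow, are descriptions over arrays that share slides, experiments and the same IL-4 steps. The genes whose levels were most like Msx3 were Clec10a (r = 0.985), Egr2 (0.983), Tmem26 (0.982), Slc7a2 (0.98) and Ptgs1 (0.973). Clec10a, a lectin of macrophages and dendritic cells, averaged 7.34 ± 0.07 at 4 h, 6.95 ± 0.03 at 18 h and 4.19 ± 0.44 in mock in Irf4-/- cells, against 7.21 ± 0.09, 6.97 ± 0.24 and 4.24 ± 0.30 in Irf4+/- cells.

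The genes most like Gata3 were St7 (r = 0.978), Wdr46 (0.965), 1110059E24Rik (0.961), Prps1 (0.954) and Tes (0.951). St7 averaged 3.37 ± 0.53 at 4 h, 1.90 ± 0.61 at 18 h and 1.06 ± 0.55 in mock in Irf4-/- cells and 3.39 ± 0.49, 1.60 ± 0.62 and 1.04 ± 0.48 in Irf4+/- cells. Among the genes most like Tal2 were Slc16a10, an amino acid transporter (r = 0.989), St3gal5, a ganglioside synthase (0.976), Golm1 (0.96) and Il17ra (0.948). Slc16a10 averaged 0.62 ± 0.33 at 4 h, 0.84 ± 0.15 at 18 h and 2.27 ± 0.29 in mock in Irf4-/- cells and 0.41 ± 0.27, 0.54 ± 0.08 and 2.22 ± 0.39 in Irf4+/- cells (SD, n = 3 each). With the mean of each experiment removed, Clec10a, St7 and Slc16a10 were again the closest to their members, at 0.99, 0.976 and 0.989.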

How the data were processed

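Each of 18 macrophage RNA samples was hybridised to its own Agilent array in 1 colour. Per the submitters' processing notes and the file headers, the authors extracted spots with Agilent Feature Extraction 9.5.1, whose processed intensity is background-subtracted and not scaled between arrays. From these deposited intensities, log2 was taken and each array's 75th percentile subtracted. Control spots and outlier spots were left out and spots of 1 probe averaged. A probe was kept when well above background on all 3 arrays of a group (27505 probes), and each of 15101 genes was tested by its kept probe of highest mean signal. Probes were named through their accession (22951), a current symbol (6659), a synonym (3109) or the file's own name (1296), and 7159 stayed unnamed. The log2 values that the authors deposited for the whole series matched the same scaling minus the Irf4+/- mock array of the same experiment (lowest correlation 0.9999 over 23604 probes, column medians -0.18 to 0.21), so their direction and scale are known.

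Under R 4.3.3, limma 3.58.1 (with statmod 1.5.0) fitted 1 mean per group over all 18 arrays with lmFit and eBayes, and two-sided p-values were adjusted by Benjamini-Hochberg over all genes. The limma fit was tested on data simulated with known changes. The simulated arrays shared no experiment or slide effect, so that test does not cover this part of the real spread. Errors beside a log2 difference are standard errors, and the number of arrays limits the precision. Promoters were searched with Python 3.11.15, and plots drawn with matplotlib 3.10.9. The letters A, B and C pair the samples: the design text gives independent experiments with littermates, and deviations from group means correlated at 0.44 to 0.87 within a letter (45 pairs) and at -0.65 to 0.27 between letters (90 pairs). Alternatives covered scaling, background correction, the filter, the choice of probe, the block, the slide, the samples fitted, the authors' table and leaving out arrays. The members, lists and named genes were chosen with earlier results of these data known. Named were the members, their closest paralogues, up to 4 called genes per list, the 3 nearest genes on each side and the 5 genes of highest r per member. A few genes that fall under these rules are not reported here.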

Additional observations from a re-analysis of the deposited data

How the results depend on the processing

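No fit called a genotype difference of Msx3, Gata3 or Tal2 under any of the alternatives. Their directions against mock with IL-4 held under all but 1, and what moved most was the background correction. Gata3 at 18 h kept its sign with normexp, but its difference from mock was then only 0.04 in Irf4-/- cells and was 2.04 in Irf4+/- cells. With normexp (offset 50) the IL-4 differences at 4 h and 18 h were 3.68 and 3.43 for Msx3 in Irf4-/- cells and 4.27 and 3.86 in Irf4+/- cells, 1.96 (Irf4-/-) and 3.44 (Irf4+/-) for Gata3 at 4 h, and -1.79 and -1.34 (Irf4-/-) and -0.85 and 0.07 (Irf4+/-, the last reversed) for Tal2. The 18 h minus 4 h difference in Irf4+/- cells became -1.40 for Gata3 and 0.92 for Tal2. Genotype differences that turned sign with it were Msx3 in mock (0.64) and in both responses (-0.59 and -0.43), Gata3 at 18 h (-0.97), and Tal2 in mock, at 4 h and at 18 h (0.36, -0.58 and -1.05) and in both responses (-0.94 and -1.41). Kit and Usp6nl turned to 0.13 and 0.24 in Irf4+/- cells at 4 h. Fitted without spots far dimmer than their local background, an alternative chosen after seeing the data, normexp gave 4.85 and 4.61 (Irf4-/-) and 4.29 and 4.08 (Irf4+/-) for Msx3, and 3.01 (Irf4-/-) and 3.34 (Irf4+/-) at 4 h and 0.60 (Irf4+/-) at 18 h for Gata3. Tal2 then gave -1.57 and -1.38 (Irf4-/-) and -1.60 and -1.62 (Irf4+/-), and the reversed genotype values were Gata3 in mock (-0.03), its 18 h response (0.28) and Tal2 at 4 h (-0.05). The cause of these shifts was not tested.

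The slide as a random block turned Msx3 at 4 h and 18 h (-0.84 and -0.70) and Gata3 at 18 h (-0.26), and as a fixed term Msx3 (-1.81 and -1.5) and Gata3 in mock and at 18 h (-0.47 and -1.27). Median scaling turned Tal2 in mock (0.02). Leaving out 1 array gave genotype differences of -0.25 to 0.18 for Msx3 at 4 h and -0.65 to 0.42 at 18 h, of -1.46 to 0.58 for Gata3 at 4 h, -0.53 to 1.75 at 18 h and -1.76 to 0.57 in its 18 h response, and of -0.46 to 0.39 for Tal2 in mock.

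With the experiment as a replicate block the genotype differences stayed as fitted without it, with adjusted p of 0.412 for Msx3 in mock, 0.364 for Gata3 in mock and 0.215 for Tal2 at 18 h, and it changed no call of a member. It raised the counts of genes that differed by genotype to 5 in mock, 4 at 4 h and 69 at 18 h, against 0, 0 and 4. The authors' deposited log2 values with the same block gave 5, 4 and 74 genes by genotype and 2333 to 2755 by IL-4. Without the block, the other settings gave 0 to 4 genes by genotype at 18 h, and at most 1 in mock or at 4 h, with the slide as a fixed term. Counts of genes changed by IL-4 ran from 141 to 243 with normexp, from 167 to 346 with only the groups compared, and from 2672 to 4987 with either slide fit, against 548 to 660. Leaving out 1 array gave 280 to 638. Most mock spots of Msx3 and Gata3 were not well above background, so signal over background limits their genotype differences in mock.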
